A study of Arabidopsis thaliana with 12 samples.

Results

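The Aux/IAA and GH3 genes carry the early transcriptional answer of plants to the hormone auxin, and they were followed here in dark-grown Arabidopsis thaliana seedlings given a short exposure to red light. The set was chosen by locus identifier from the table of all genes: 29 Aux/IAA genes (IAA1 to IAA20 and IAA26 to IAA34) and 7 GH3 genes whose enzymes conjugate auxin to amino acids (GH3.1 to GH3.6 and GH3.17), 36 of the 33655 genes in the table. All 36 were found in the table and in the reference annotation (RefSeq, TAIR10.1). Of these, 30 had enough counts to be tested, 25 of them Aux/IAA and 5 GH3 genes.

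The 12 libraries form 4 groups of 3: b''ab''b seedlings in red light, b''ab''b seedlings in the dark, wild type (WT) Col-0 seedlings in red light, and WT Col-0 seedlings in the dark. The b''ab''b plants carry mutations in B''a and B''b, regulatory subunits of protein phosphatase PP2A. The labels do not name the alleles. All seeds had 3 days of cold in the dark and 3 h of white light at 22 degrees, and all seedlings grew for 4 days in darkness on medium without sucrose. The red groups then had 1 h of continuous red light (8 µmol per square metre and second) while the dark groups stayed dark. RNA came from whole seedlings, so fewer cells of a type and less RNA per cell cannot be told apart. Nothing in the labels says that replicates were grown separately, so a p-value speaks only of the spread over these libraries.

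Auxin acts by removing repressors. Aux/IAA proteins sit on auxin response factors (ARFs) and keep their target genes off. Auxin joins the Aux/IAA degron to a TIR1/AFB receptor, the Aux/IAA protein is degraded, and the ARF target genes, which include most Aux/IAA and GH3 genes, are switched on. GH3 enzymes of this group attach amino acids to auxin and so take it out of action. In dark-grown seedlings phytochrome-interacting factors promote hypocotyl growth partly through auxin, and IAA19 and IAA29 are known as targets of those factors.

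The degron is the part of an Aux/IAA protein that the receptor reads, and its core is encoded by 4 codons for glycine, tryptophan, proline and proline. That core was found in the coding sequence of 23 of the 29 Aux/IAA genes and was missing from 6, IAA20 and IAA30 to IAA34. The coding strand around it (36 bases, core codons in capitals, RefSeq TAIR10.1) is shown 5′ to 3′ for IAA29 and IAA28, the genes with the core whose mean red light changes were largest, and for 4 pairs of close relatives compared further on. In IAA12 an intron interrupts this stretch, so it is not shown.
IAA29 (chr4:15583939-15583974, plus strand): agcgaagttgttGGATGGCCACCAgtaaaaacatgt
IAA28 (chr5:9033809-9033844, plus strand): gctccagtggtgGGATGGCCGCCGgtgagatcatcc
IAA19 (chr3:5264304-5264339, plus strand): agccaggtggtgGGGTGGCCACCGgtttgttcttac
IAA6 (chr1:19673320-19673355, minus strand): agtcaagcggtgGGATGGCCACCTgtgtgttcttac
IAA4 (chr5:17550737-17550772, plus strand): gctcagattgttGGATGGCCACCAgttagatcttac
IAA3 (chr1:1129016-1129051, minus strand): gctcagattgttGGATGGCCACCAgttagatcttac
IAA26 (chr3:5613659-5613694, minus strand): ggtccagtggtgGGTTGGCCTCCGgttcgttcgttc
IAA18 (chr1:19306228-19306263, plus strand): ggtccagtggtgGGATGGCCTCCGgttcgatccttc
IAA1 (chr4:8361433-8361468, plus strand): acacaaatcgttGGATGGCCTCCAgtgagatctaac
IAA2 (chr3:8181384-8181419, minus strand): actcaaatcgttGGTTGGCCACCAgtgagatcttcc
IAA3 and IAA4 had the same base at all 36 positions of this stretch, IAA26 and IAA18 at 33, IAA1 and IAA2 at 31, and IAA19 and IAA6 at 30.

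The 250 bases before the start of the annotated gene are shown for 4 members that fell in red light (IAA29, IAA20, IAA19, GH3.3) and 3 that rose (IAA28, GH3.6, IAA1). Capitals mark matches, on either strand, to the auxin response element letters TGTCNC and TGTCGG and to the G-box letters CACGTG, a sequence bound by phytochrome-interacting factors among other proteins. TGTCNC and TGTCGG cannot match at the same position on the same strand.
IAA29 (chr4:15583082-15583331, plus strand): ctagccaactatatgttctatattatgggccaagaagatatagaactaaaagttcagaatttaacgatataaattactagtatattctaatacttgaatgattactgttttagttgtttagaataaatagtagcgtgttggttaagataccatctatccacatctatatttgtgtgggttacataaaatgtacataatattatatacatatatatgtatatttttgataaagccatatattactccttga
IAA20 (chr2:19307464-19307713, plus strand): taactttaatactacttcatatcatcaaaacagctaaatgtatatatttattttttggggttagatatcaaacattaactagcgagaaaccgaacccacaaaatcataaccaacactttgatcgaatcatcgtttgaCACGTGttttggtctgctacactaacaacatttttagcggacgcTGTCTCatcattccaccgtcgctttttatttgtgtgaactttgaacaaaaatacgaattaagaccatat
IAA19 (chr3:5263751-5264000, plus strand): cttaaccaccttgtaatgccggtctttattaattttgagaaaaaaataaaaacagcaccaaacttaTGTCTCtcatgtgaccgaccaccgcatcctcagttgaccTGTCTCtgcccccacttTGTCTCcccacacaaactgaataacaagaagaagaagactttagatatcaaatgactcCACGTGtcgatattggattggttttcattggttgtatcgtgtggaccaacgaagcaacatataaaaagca
GH3.3 (chr2:9866563-9866812, minus strand): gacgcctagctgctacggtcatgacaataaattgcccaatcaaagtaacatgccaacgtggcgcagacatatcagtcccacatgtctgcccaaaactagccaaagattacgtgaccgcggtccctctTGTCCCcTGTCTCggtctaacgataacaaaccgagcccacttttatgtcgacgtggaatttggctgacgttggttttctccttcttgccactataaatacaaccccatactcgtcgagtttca
IAA28 (chr5:9032954-9033203, plus strand): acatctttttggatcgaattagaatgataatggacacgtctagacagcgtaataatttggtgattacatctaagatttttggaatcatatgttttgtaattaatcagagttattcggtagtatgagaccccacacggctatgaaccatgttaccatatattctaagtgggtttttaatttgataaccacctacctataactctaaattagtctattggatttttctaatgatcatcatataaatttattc
GH3.6 (chr5:22133689-22133938, minus strand): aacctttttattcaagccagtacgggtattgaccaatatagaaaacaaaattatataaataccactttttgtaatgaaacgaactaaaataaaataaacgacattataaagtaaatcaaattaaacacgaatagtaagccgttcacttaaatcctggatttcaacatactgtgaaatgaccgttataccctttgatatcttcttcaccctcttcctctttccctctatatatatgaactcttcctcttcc
IAA1 (chr4:8360746-8360995, plus strand): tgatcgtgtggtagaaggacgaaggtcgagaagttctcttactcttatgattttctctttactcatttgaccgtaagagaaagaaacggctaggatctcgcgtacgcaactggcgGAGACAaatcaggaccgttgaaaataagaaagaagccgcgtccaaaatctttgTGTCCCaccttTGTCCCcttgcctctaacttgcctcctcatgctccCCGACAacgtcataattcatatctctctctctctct
IAA19 held 3 TGTCNC matches and 1 CACGTG match in this window, and IAA20 held 1 of each. GH3.3 held 2 TGTCNC matches, IAA1 held 3 TGTCNC matches and 1 TGTCGG match, and IAA29, IAA28 and GH3.6 held no match to these letters. The 3 shown that rose are not those that rose the most. GH3.17 and IAA12, not shown, both rose more than IAA1, and in this window GH3.17 held no match and IAA12 held 1 TGTCGG match.

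Library totals ran from 2874429 to 4979055 counts, so 3 counts, the upper limit behind a count of 0, were worth 0.578 to 1.02 CPM (counts scaled by library size). This limit covers counting error only, since PCR copies of a tag count as reads. The first principal component separated the red from the dark libraries in both genotypes, and on the second the dark libraries b''ab''b replicate 3 and WT replicate 1 stood apart from the other dark libraries. Of the 2 loci taken as the targeted genes, which the reference annotates as calcium-binding EF-hand proteins without a subunit name, AT5G44090 was lower in b''ab''b (log2 difference ± standard error, as throughout, -2.76 ± 0.18 in red light and -2.24 ± 0.16 in the dark, edgeR adjusted p = 1.53e-09 and 2.63e-08). AT1G03960 was at 0.749 to 2.06 CPM in b''ab''b and 1.96 to 3.597 CPM in WT in red light, and at 0.899 to 1.38 CPM in b''ab''b and 3.76 to 4.96 CPM in WT in the dark. Its log2 difference was -0.96 ± 0.43 in red light (unadjusted p = 0.0374, edgeR adjusted p = 0.999) and -1.87 ± 0.42 in the dark (unadjusted p = 2.01e-04, edgeR adjusted p = 0.226), without a call in either. Where the mutations lie relative to the tags is not given. The cotyledon enzymes of dark-grown seedlings, PORA and PORB, summed to 2364 to 2755 CPM in red and 3913 to 4029 CPM in the dark in b''ab''b, and to 2497 to 2955 CPM in red and 3964 to 4182 CPM in the dark in WT. Both passed the test as lower in red light, and the endodermis marker SCR passed as higher (log2 change 0.30 ± 0.10 in b''ab''b and 0.31 ± 0.10 in WT), while CASP1 and the markers of root hairs (3 genes), dividing cells (3), vascular tissue (2) and seed stage (2 of 4 tested) did not pass in either genotype. The part of such shifts in the changes below was not tested. The summed seed-stage markers reached 42.7 CPM in 1 b''ab''b dark library and no more than 8.86 CPM in the b''ab''b red, WT red or WT dark libraries.

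Within 1 h of red light the families split: in each genotype 8 members rose and 6 fell, out of 30 tested (edgeR quasi-likelihood test, Benjamini-Hochberg adjusted p under 0.05 over all 18487 tested genes). That is 46.7% of the tested members in each genotype, where 16% of all tested genes were called in b''ab''b (10.7% higher and 5.27% lower) and 15.2% in WT (10.6% higher and 4.68% lower). The members were measured more precisely than most genes, so smaller changes could be called among them. Their median standard error was 0.126 in each genotype, against 0.174 over all tested genes. The part of this in the higher share was not tested. In b''ab''b IAA1, IAA12, IAA14, IAA16, IAA28, GH3.5, GH3.6 and GH3.17 rose and IAA4, IAA19, IAA20, IAA26, IAA29 and GH3.3 fell. In WT the list was the same but for IAA17, which was called there, and IAA14, which was not. For the 13 members called in both genotypes the sign agreed between them, with 7 up and 6 down, and for each of the 13 the 3 red and the 3 dark libraries did not overlap in either genotype. Such separation follows largely from the call, since 97.9% of all genes called in both genotypes show it. Without regard to calls it held for 16 of the 30 tested members (53.3%), the other 3 being IAA7, IAA8 and IAA14, and for 17.4% of all tested genes. The 13 members called in both are 43.3% of the tested members, where 11.6% of all tested genes were called in both.

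The median log2 change over the tested members was 0.03 in b''ab''b and 0.07 in WT, beside -0.01 and -0.02 over all tested genes. The mean of the b''ab''b and WT changes reached a size of 1 on the log2 scale for 3 members, IAA29, IAA20 and IAA28, where 5.34% of all tested genes did. With both genotypes averaged, 9 members rose and 7 fell, where 24.9% of all tested genes were called (14.9% higher and 9.97% lower). This added IAA11 to the genes that fell.

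**Figure D1:**
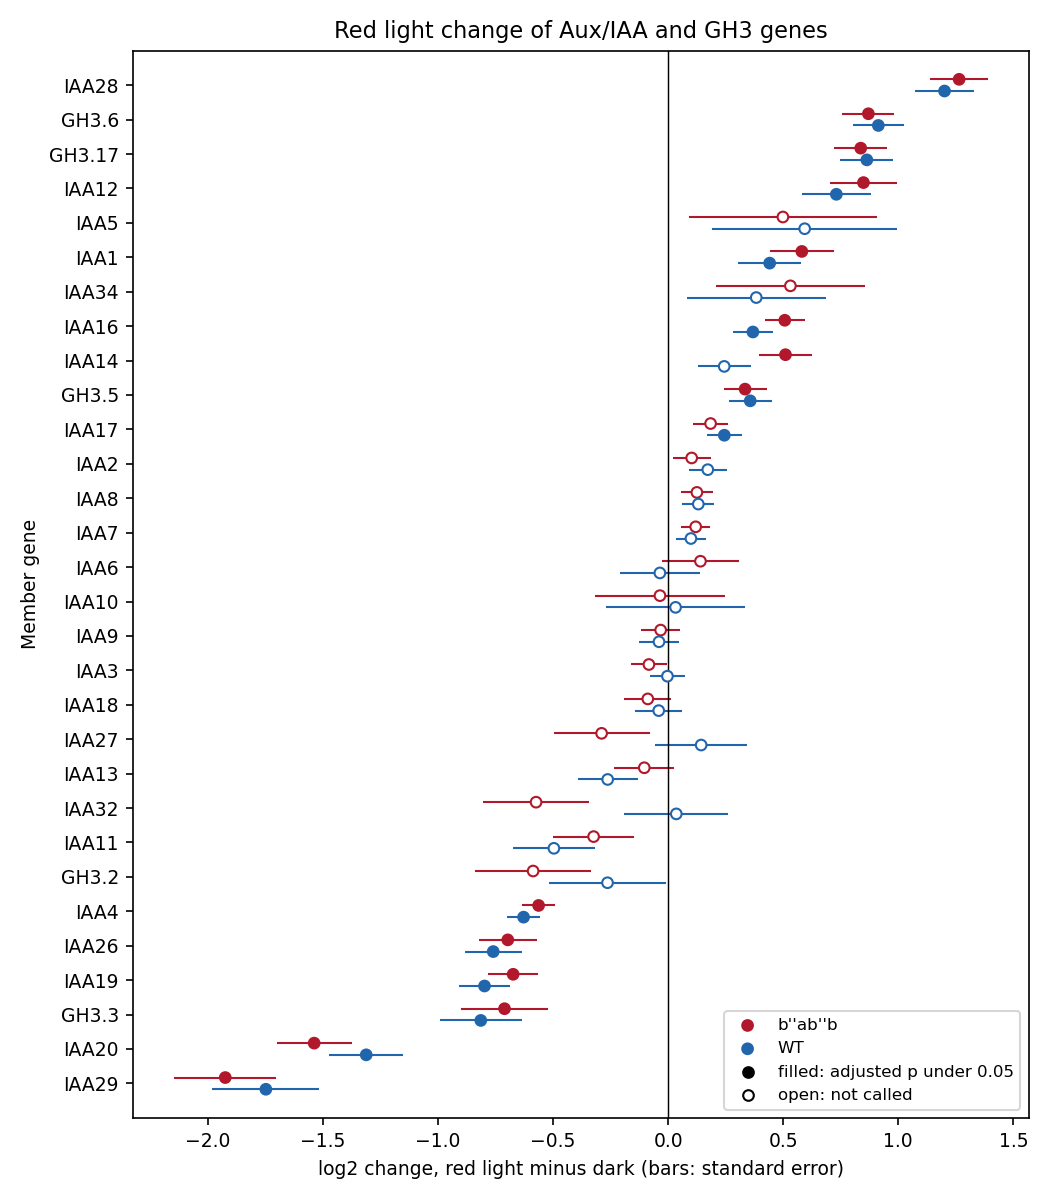
Log2 change from dark to red light of the 30 tested members (rows, ordered by the mean of both genotypes), with b''ab''b in red and WT in blue; points are edgeR estimates, bars their standard errors, and filled points have an adjusted p under 0.05. IAA28 stands at the top with 1.26 in b''ab''b and 1.20 in WT, IAA29 at the bottom with -1.92 and -1.75, and the points of both genotypes lie close together in most rows.

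Among the Aux/IAA repressors that fell, IAA29 (AT4G32280, chr4:15583332-15584903, plus strand) fell the furthest. IAA29 is known for its response to shade and high temperature in the growing hypocotyl. It was measured at 7.10, 6.37 and 7.24 CPM in b''ab''b red libraries, against 29.8, 24.0 and 25.9 CPM in b''ab''b dark libraries. It stood at 7.59, 2.98 and 8.09 CPM in WT red libraries, against 17.7, 21.0 and 26.6 CPM in WT dark libraries. Every red library lay below every dark library of its genotype, with WT red replicate 2 the lowest of all 12. The log2 change was -1.92 ± 0.22 in b''ab''b (3.796-fold lower, edgeR adjusted p = 5.46e-07) and -1.75 ± 0.23 in WT (3.36-fold lower, edgeR adjusted p = 4.35e-06).

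IAA20 (AT2G46990, chr2:19307714-19309071, plus strand), a member whose protein lacks the degron core and is long-lived for that reason, had the next largest fall. It had 13.7, 10.8 and 12.2 CPM in b''ab''b red libraries, against 35.9, 38.2 and 33.6 CPM in b''ab''b dark libraries. It measured 16.7, 13.8 and 11.2 CPM in WT red libraries, against 33.1, 28.7 and 42.3 CPM in WT dark libraries, so the groups again did not overlap. The log2 change was -1.54 ± 0.16 in b''ab''b (2.90-fold lower, edgeR adjusted p = 1.45e-07) and -1.31 ± 0.16 in WT (2.48-fold lower, edgeR adjusted p = 1.39e-06).

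IAA19, also known as MSG2, is the repressor through which gain-of-function alleles block the bending of the hypocotyl toward light and against gravity; it lies at AT3G15540, chr3:5264001-5265695, plus strand. It was at 55.4, 69.2 and 61.7 CPM in b''ab''b red libraries, against 108, 96.0 and 93.6 CPM in b''ab''b dark libraries. It was at 64.7, 50.1 and 48.3 CPM in WT red libraries, against 101, 90.7 and 90.5 CPM in WT dark libraries. The highest red library of either genotype (WT red replicate 1 and b''ab''b red replicate 2) stayed below all 6 dark libraries. The fall was 1.60-fold in b''ab''b (log2 change -0.67 ± 0.11, edgeR adjusted p = 5.98e-05) and 1.74-fold in WT (log2 change -0.80 ± 0.11, edgeR adjusted p = 7.66e-06).

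IAA26 (AT3G16500, chr3:5612203-5614803, minus strand), also called PAP1 for phytochrome-associated protein, fell by a similar factor. IAA26 had 33.9, 32.4 and 28.7 CPM in b''ab''b red libraries, against 45.8, 55.3 and 52.1 CPM in b''ab''b dark libraries. It measured 36.5, 26.8 and 36.4 CPM in WT red libraries, against 54.5, 52.1 and 63.9 CPM in WT dark libraries. Its red and dark libraries did not overlap, and its log2 change was -0.70 ± 0.13 in b''ab''b and -0.76 ± 0.12 in WT (edgeR adjusted p = 2.49e-04 and 7.51e-05). IAA4 (AT5G43700, chr5:17550179-17551715, plus strand) had the smallest standard errors among the members that fell. Its values were 125, 125 and 129.6 CPM in b''ab''b red libraries, against 190.2, 184 and 188 CPM in b''ab''b dark libraries. It stood at 129.8, 119 and 116 CPM in WT red libraries, against 189.7, 193 and 182 CPM in WT dark libraries. The log2 change of IAA4 was -0.56 ± 0.07 in b''ab''b and -0.63 ± 0.07 in WT (edgeR adjusted p = 2.86e-06 and 5.78e-07), and no red library came near a dark one.

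**Figure D2:**
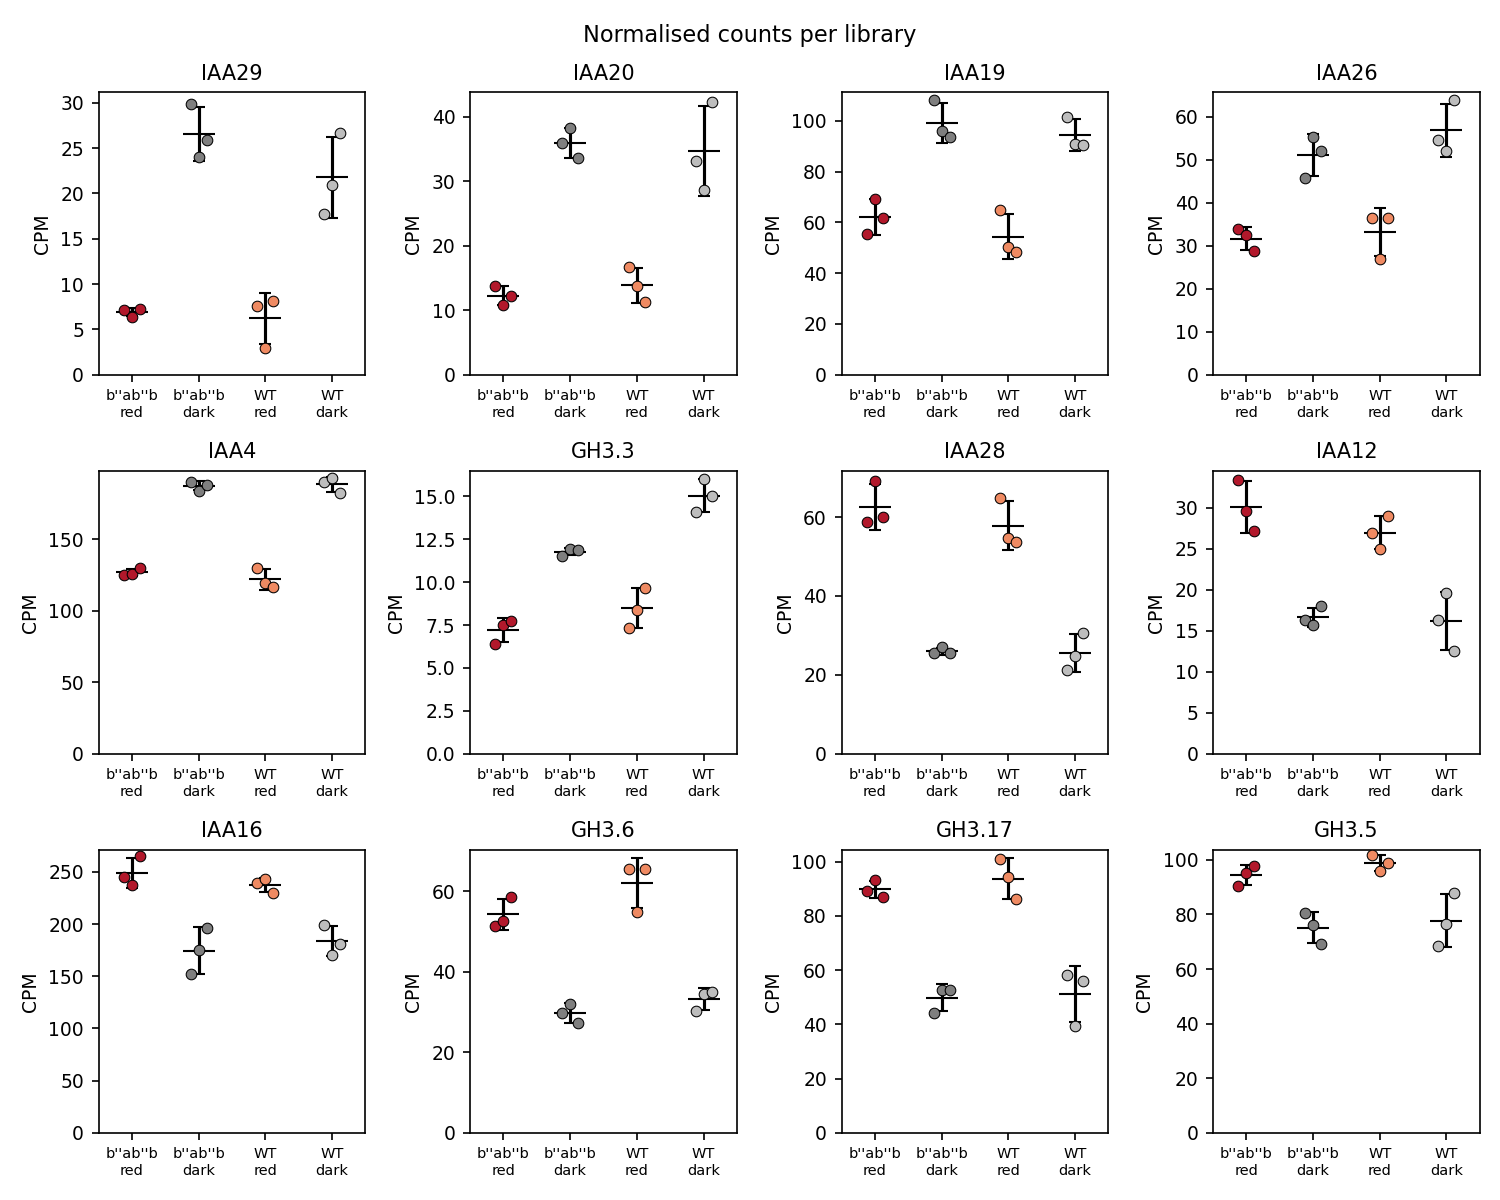
Normalised counts (CPM on TMM-scaled library sizes, linear axis from 0) of 12 of the 13 members called in both genotypes (IAA1 is not drawn), in each library; columns are b''ab''b red, b''ab''b dark, WT red and WT dark, points are libraries, and lines and bars give the mean and SD of 3. For IAA29 the b''ab''b red libraries sit at 6.37 to 7.24 CPM against 24.0 to 29.8 CPM in the b''ab''b dark libraries, and for IAA28 they sit at 58.6 to 69.2 CPM against 25.4 to 27.0 CPM.

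Among the repressors that rose, IAA28 (AT5G25890, chr5:9033204-9035140, plus strand), known from gain-of-function plants that make few lateral roots, moved the most. IAA28 had 58.6, 69.2 and 59.9 CPM in b''ab''b red libraries, against 25.4, 27.0 and 25.5 CPM in b''ab''b dark libraries. It had 64.9, 54.7 and 53.7 CPM in WT red libraries, against 21.2, 24.8 and 30.7 CPM in WT dark libraries, and the red libraries were above the dark ones throughout. Its level was 2.40-fold higher in red light in b''ab''b (log2 change 1.26 ± 0.13, edgeR adjusted p = 4.81e-08) and 2.30-fold higher in WT (log2 change 1.20 ± 0.13, edgeR adjusted p = 1.50e-07).

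IAA12 (AT1G04550, chr1:1240294-1242157, plus strand), also called BODENLOS, represses ARF5 in the embryo, where it acts on the founding of the root. It had 33.4, 29.6 and 27.2 CPM in b''ab''b red libraries, against 16.3, 15.7 and 18.0 CPM in b''ab''b dark libraries. It had 26.9, 24.9 and 29.0 CPM in WT red libraries, against 16.4, 19.6 and 12.5 CPM in WT dark libraries. The groups did not overlap, and the log2 change was 0.85 ± 0.15 in b''ab''b and 0.73 ± 0.15 in WT (edgeR adjusted p = 1.36e-04 and 9.77e-04).

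IAA16 (AT3G04730, chr3:1288155-1290891, minus strand), whose gain-of-function allele lowers the response to auxin and to abscisic acid, rose less. Its values were 245, 237 and 265 CPM in b''ab''b red libraries, against 152, 176 and 197 CPM in b''ab''b dark libraries. It measured 239, 244 and 230.0 CPM in WT red libraries, against 199, 171 and 181 CPM in WT dark libraries. The dark b''ab''b libraries spread the most, from 152 to 197 CPM, and still lay below all red ones; the log2 change was 0.51 ± 0.09 in b''ab''b and 0.37 ± 0.09 in WT (edgeR adjusted p = 1.31e-04 and 0.00387). IAA1 (AT4G14560, chr4:8360996-8362033, plus strand), also called AXR5, is known as an early auxin-induced gene. IAA1 was at 29.5, 36.3 and 29.7 CPM in b''ab''b red libraries, against 25.4, 18.9 and 20.3 CPM in b''ab''b dark libraries. It stood at 30.6, 29.8 and 34.4 CPM in WT red libraries, against 22.5, 26.8 and 20.7 CPM in WT dark libraries. Its log2 change was 0.58 ± 0.14 in b''ab''b and 0.44 ± 0.14 in WT (edgeR adjusted p = 0.00439 and 0.0313), and the WT call was lost in 6 of 20 alternatives, among them DESeq2 (adjusted p = 0.0900) and the fits without WT red replicate 1 or 3 or WT dark replicate 1 or 3 (edgeR adjusted p = 0.0589 to 0.151).

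IAA14 and IAA17 were each called in 1 genotype. IAA14 (AT4G14550, chr4:8347822-8350263, minus strand), or SOLITARY-ROOT, blocks lateral root initiation when stabilised. IAA14 had 50.6, 46.0 and 52.4 CPM in b''ab''b red libraries, against 41.7, 32.6 and 32.0 CPM in b''ab''b dark libraries. It had 46.1, 45.8 and 40.2 CPM in WT red libraries, against 38.3, 35.9 and 36.9 CPM in WT dark libraries. Its groups did not overlap in either genotype, with a log2 change of 0.51 ± 0.11 in b''ab''b (edgeR adjusted p = 0.00219) and 0.24 ± 0.11 in WT (edgeR adjusted p = 0.180). IAA17 (AT1G04250, chr1:1136078-1138663, plus strand), or AXR3, gives agravitropic roots when stabilised. IAA17 had 354, 388 and 384 CPM in b''ab''b red libraries, against 318, 313 and 359 CPM in b''ab''b dark libraries. It measured 351, 361 and 359 CPM in WT red libraries, against 326, 275 and 302 CPM in WT dark libraries. In b''ab''b dark replicate 3 lay above the lowest red library, and in WT the groups did not overlap; the log2 change was 0.18 ± 0.08 in b''ab''b (edgeR adjusted p = 0.110) and 0.24 ± 0.08 in WT (edgeR adjusted p = 0.0292). Without b''ab''b dark replicate 3 IAA17 was called in b''ab''b too (edgeR adjusted p = 0.0249), and the WT call was lost in the fits without WT red replicate 1, 2 or 3 or WT dark replicate 2 or 3 (edgeR adjusted p = 0.0607 to 0.132). The difference between the genotypes in the red light change was not called for IAA14 (0.27 ± 0.16, edgeR adjusted p = 1.000) or for IAA17 (-0.06 ± 0.11, edgeR adjusted p = 1.000).

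The auxin-conjugating GH3 genes went in opposite directions: GH3.5, GH3.6 and GH3.17 rose and GH3.3 fell in both genotypes. GH3.6 (AT5G54510, chr5:22130964-22133688, minus strand), also called DFL1, gives short hypocotyls when overexpressed. GH3.6 was measured at 51.5, 52.6 and 58.7 CPM in b''ab''b red libraries, against 29.8, 32.1 and 27.2 CPM in b''ab''b dark libraries. It stood at 65.7, 55.0 and 65.6 CPM in WT red libraries, against 30.2, 34.5 and 35.1 CPM in WT dark libraries. All red libraries lay above all dark libraries, with a log2 change of 0.87 ± 0.11 in b''ab''b (1.83-fold higher, edgeR adjusted p = 3.28e-06) and 0.91 ± 0.11 in WT (1.88-fold higher, edgeR adjusted p = 1.13e-06).

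GH3.17 (AT1G28130, chr1:9825169-9828118, plus strand), or VAS2, joins auxin to glutamate and is known to act on hypocotyl length in shade. GH3.17 had 89.3, 93.1 and 86.9 CPM in b''ab''b red libraries, against 44.1, 52.8 and 52.5 CPM in b''ab''b dark libraries. It had 101, 94.3 and 86.1 CPM in WT red libraries, against 58.2, 39.4 and 56.0 CPM in WT dark libraries. Its change was close to that of GH3.6, at 0.84 ± 0.12 in b''ab''b and 0.86 ± 0.11 in WT on the log2 scale (edgeR adjusted p = 7.27e-06 and 4.52e-06), and no libraries overlapped. GH3.5 (AT4G27260, chr4:13653579-13656285, plus strand), or WES1, which also accepts salicylic acid as a substrate, rose less. GH3.5 was at 90.4, 95.3 and 97.6 CPM in b''ab''b red libraries, against 80.4, 76.2 and 69.1 CPM in b''ab''b dark libraries. It measured 102, 95.9 and 98.7 CPM in WT red libraries, against 68.6, 76.7 and 88.0 CPM in WT dark libraries. Its groups did not overlap, and the log2 change of GH3.5 was 0.33 ± 0.09 in b''ab''b and 0.36 ± 0.09 in WT (edgeR adjusted p = 0.0142 and 0.00882). The call was lost in b''ab''b without red replicate 2 or 3 or dark replicate 3 (edgeR adjusted p = 0.0520 to 0.0740) and in WT without dark replicate 1 (edgeR adjusted p = 0.0717).

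GH3.3 (AT2G23170, chr2:9863855-9866562, minus strand), a strongly auxin-induced member known from adventitious root formation, moved the other way. GH3.3 had 6.41, 7.48 and 7.74 CPM in b''ab''b red libraries, against 11.5, 11.9 and 11.8 CPM in b''ab''b dark libraries. It stood at 7.35, 8.40 and 9.67 CPM in WT red libraries, against 14.1, 16.0 and 15.0 CPM in WT dark libraries. The red libraries were below the dark ones in each genotype, with a log2 change of -0.71 ± 0.19 in b''ab''b and -0.81 ± 0.18 in WT (edgeR adjusted p = 0.00960 and 0.00182). These levels rest on 516 counts in all, and the b''ab''b call was lost with DESeq2 (adjusted p = 0.0531) and without b''ab''b red replicate 1 (edgeR adjusted p = 0.0590). GH3.2, with 5.04, 6.65 and 6.74 CPM in b''ab''b red libraries against 7.46, 7.87 and 11.6 CPM in b''ab''b dark libraries, did not pass the test there (log2 change -0.59 ± 0.25, edgeR adjusted p = 0.134), nor in WT (log2 change -0.26 ± 0.25, edgeR adjusted p = 0.569).

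The other Aux/IAA genes did not pass the test in either genotype. IAA3, or SHY2, whose stabilised form makes seedlings grow in the dark as if lit, was at 106, 105 and 116 CPM in b''ab''b red libraries, against 113, 115 and 118 CPM in b''ab''b dark libraries. It stood at 117, 111 and 117 CPM in WT red libraries, against 114, 122 and 109.9 CPM in WT dark libraries, and its groups overlapped in both genotypes. Its log2 change was -0.08 ± 0.08 in b''ab''b and -0.003 ± 0.08 in WT, and it overlaps a gene on the opposite strand (AT1G04230). IAA6, or SHY1, which came from the same kind of screen for suppressors of a phytochrome-deficient mutant, was at 19.2, 18.0 and 17.5 CPM in b''ab''b red libraries, against 12.9, 16.4 and 19.3 CPM in b''ab''b dark libraries. It measured 18.4, 16.0 and 12.8 CPM in WT red libraries, against 15.8, 17.9 and 14.4 CPM in WT dark libraries. Its groups overlapped too, with a log2 change of 0.14 ± 0.17 in b''ab''b and -0.04 ± 0.17 in WT. For IAA7, or AXR2, whose stabilised form dwarfs the plant, the red and dark libraries did not overlap in either genotype, but the change was 0.12 ± 0.06 in b''ab''b and 0.10 ± 0.06 in WT on the log2 scale and was not called (edgeR adjusted p = 0.248 and 0.358).

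IAA11 was at 13.1, 12.2 and 9.99 CPM in b''ab''b red libraries, against 12.9, 14.2 and 16.6 CPM in b''ab''b dark libraries. It stood at 10.5, 11.1 and 10.3 CPM in WT red libraries, against 14.8, 13.0 and 17.5 CPM in WT dark libraries, so its groups overlapped in b''ab''b and not in WT. It fell with both genotypes averaged (log2 change -0.41 ± 0.12, edgeR adjusted p = 0.0175) and in neither alone. That call was lost with DESeq2 (adjusted p = 0.0659), without b''ab''b red replicate 3, b''ab''b dark replicate 3 or WT dark replicate 3 (edgeR adjusted p = 0.0542 to 0.0660), and without both dark libraries that stand apart (edgeR adjusted p = 0.0774). IAA11 overlaps a gene on the opposite strand, AT4G28650, and the labels do not say whether counting used strand. None of the members called in 1 genotype or more overlaps another annotated gene. IAA5 and IAA34 had larger estimates than some called genes, at 0.50 ± 0.41 and 0.53 ± 0.33 in b''ab''b and 0.59 ± 0.40 and 0.38 ± 0.30 in WT, with 132 and 317 counts over the 12 libraries. IAA34 overlaps a gene on the same strand (AT1G15060). IAA5 (AT1G15570) and IAA32 (AT2G01210) overlap a gene on the opposite strand, as do IAA9, IAA10, IAA13 and IAA27. What these overlaps do to the counts was not tested. The remaining uncalled members, IAA2, IAA8, IAA9, IAA10, IAA13, IAA18, IAA27 and IAA32, lay between -0.57 (IAA32) and 0.12 (IAA8) in b''ab''b and between -0.26 (IAA13) and 0.17 (IAA2) in WT.

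The 6 members below the count limit were IAA15, IAA30, IAA31, IAA33, GH3.1 and GH3.4. None had more than 9 counts in a library. GH3.4 had 0 counts in all 12 libraries, which allows up to 0.578 to 1.02 CPM depending on the library, and IAA15 had 1 count, in WT red replicate 1. Of the last 500 bases of each member's transcript, where such tags come from, none of the 36 had a match of 50 bases or more at 95% identity elsewhere in the genome.

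By the degron core, 22 of the 23 Aux/IAA genes that carry it were tested, and in each genotype 5 rose and 4 fell. Of the 6 without it 3 were tested, and 1 fell, IAA20. Members with and without the core were thus found among the genes that fell, and the few tested without it give no base for a comparison.

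Closest relatives were set against each other to see whether red light moved them alike. For each member the most similar other member by coding sequence (annotation isoform 1) was looked up. Identity was counted over all aligned positions, gaps included, so a difference in length lowers it. IAA12 (522 coding bases) was closest to IAA13 (741), but IAA13 was closest to IAA11, so IAA12 and IAA13 were not paired. In all, 11 pairs were each other's closest, and 9 had both genes tested. The measure was the log2 ratio of the pair in each library (0.5 CPM added), compared between red and dark libraries with an exact two-sided permutation test within genotypes (400 arrangements, smallest possible p 0.005), adjusted over the 9 pairs; this test was added after the values of the members had been seen. The ratio shifted in 8 of the 9 pairs, which were also those at an unadjusted p under 0.05 (88.9%). Of the 426 other pairs that can be made from the tested members, 302 (70.9%) were under it too. The median size of the shift was 0.53 on the log2 scale over the 9 pairs and 0.59 over the 426. A shift was thus common among pairs of members whatever their kinship, and the values below describe single pairs.

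Among the pairs that passed, the largest shift with both genotypes averaged was in IAA19 against IAA6 (68.8% identical), where the log2 ratio shifted by -0.86 in b''ab''b and -0.76 in WT, with IAA19 the one that fell (exact permutation test, adjusted p = 0.0112). IAA18 against IAA26 (74.3% identical) shifted by 0.59 in b''ab''b and 0.74 in WT, with IAA26 the one that fell. IAA3 against IAA4 (76.1% identical) shifted by 0.48 and 0.62, and here the 36 degron bases shown above are the same in both genes. GH3.5 against GH3.6 (84.1% identical) shifted by -0.53 in b''ab''b and -0.54 in WT, with GH3.6 the one that rose more. These 3 pairs had the same exact permutation adjusted p of 0.0112.

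IAA1 against IAA2 (79.0% identical) and IAA14 against IAA7 (80.2% identical) shifted toward the first gene, by 0.36 and 0.26 with both genotypes averaged (exact permutation test, adjusted p = 0.0180 and 0.0225). IAA10 against IAA11 shifted by 0.42 (exact permutation test, adjusted p = 0.0257) and IAA8 against IAA9 by 0.16 (exact permutation test, adjusted p = 0.0338), and these calls were lost in 6 and 8 of 14 alternatives. IAA32 against IAA34, relatives whose proteins lack the degron core, did not pass: the ratio differed by -1.17 in b''ab''b, more than in any other of the 9 pairs, and by -0.25 in WT (mean -0.71, exact permutation test, adjusted p = 0.0750). Both genes overlap another annotated gene, as given above.

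**Figure D3:**
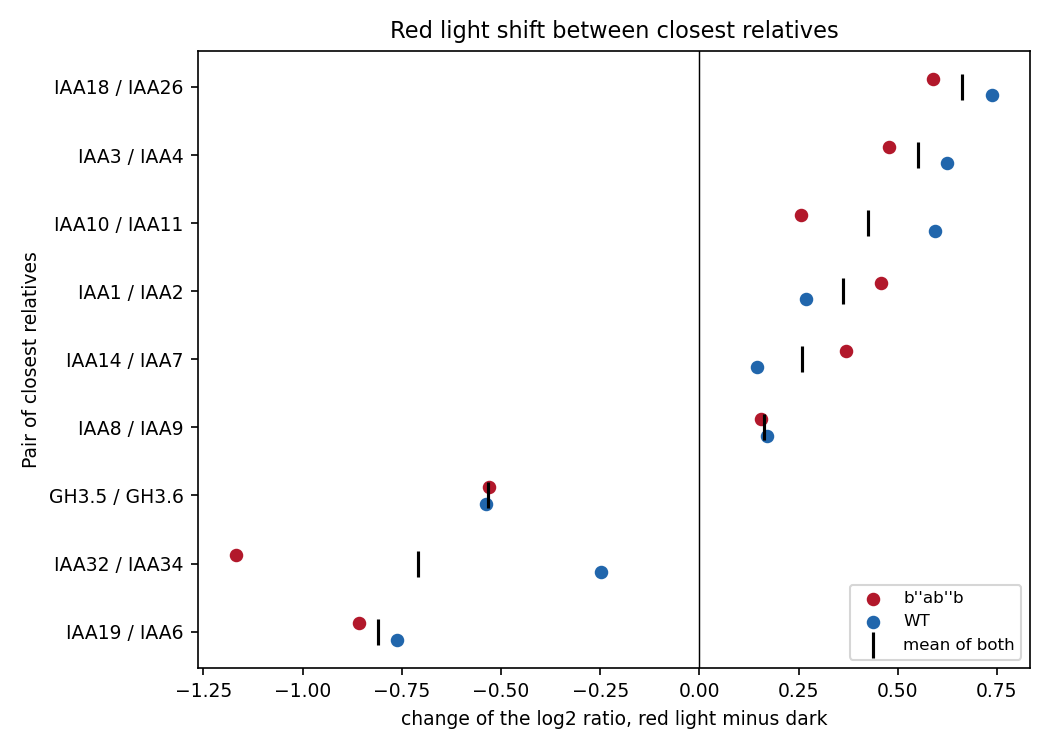
Change from dark to red light in the log2 ratio of closest relatives (first gene over second, rows), with b''ab''b in red, WT in blue and their mean as a black line; a value above 0 means that the first gene gained on the second. The 9 means run from -0.81 for IAA19 over IAA6 to 0.66 for IAA18 over IAA26, and in each row both genotypes lie on the same side of 0.

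Some members lie near each other in the genome. IAA14 and IAA1 lie on chromosome 4 in opposite orientations, 10.7 kb apart with 1 gene between them, and both rose with the genotypes averaged. IAA3 and IAA17 lie on chromosome 1, 6.39 kb apart with 1 gene between, and IAA2 and IAA7 on chromosome 3, 12.5 kb apart with 1 gene between; of these 4 genes IAA17 was called in the average (log2 change 0.21 ± 0.05, edgeR adjusted p = 0.00393) and IAA2, IAA3 and IAA7 were not.

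Between b''ab''b and WT no member passed the test. With edgeR, 0 of 30 members passed for b''ab''b against WT in red light, where 0.0811% of all tested genes were called, 0 in the dark (0.0541% of all genes), 0 with both light conditions averaged (0.119%) and 0 for the difference in red light change (0% of all genes). At an unadjusted p under 0.05 edgeR gave 1 member in red light (IAA27, log2 difference -0.44 ± 0.21), 0 in the dark, 2 with both conditions averaged (GH3.3 -0.29 ± 0.13 and GH3.6 -0.18 ± 0.08) and 0 for the difference in change. Of all tested genes 4.59%, 4.02%, 5.46% and 3.32% were under that limit in the same order, so so few members do not stand out. DESeq2 gave 0 in all 4 comparisons at either limit, and limma-voom gave none adjusted and 1 (IAA27), 1 (GH3.3), 2 (GH3.3 and GH3.6) and 0 unadjusted. The unadjusted shares of all tested genes, in that order, were 2.06%, 1.68%, 2.68% and 1.25% with DESeq2. With limma-voom they were 4.62%, 4.05%, 5.45% and 3.35%.

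GH3.3 was the tested member nearest to a genotype difference in the dark, with 11.5, 11.9 and 11.8 CPM in b''ab''b against 14.1, 16.0 and 15.0 CPM in WT. Its b''ab''b and WT dark libraries did not overlap, with a log2 difference of -0.34 ± 0.17 and the lowest unadjusted p of the members, 0.0532 (edgeR adjusted p = 1.000). In red light GH3.3 was at 6.41, 7.48 and 7.74 CPM in b''ab''b and 7.35, 8.40 and 9.67 CPM in WT, which overlap. Groups that do not overlap were found for 1 tested member in red light (IAA10) and 2 in the dark (IAA8 and GH3.3), beside 11.1% and 8.81% of all tested genes. Below the count limit, GH3.1 was apart in the dark too, at 1, 2 and 4 counts in b''ab''b against 7, 6 and 8 in WT.

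For the difference in red light change between b''ab''b and WT the members ran from -0.61 ± 0.32 (IAA32) to 0.27 ± 0.16 (IAA14) on the log2 scale, with a median standard error of 0.18 and a lowest unadjusted p of 0.0723. IAA32 was at 8.47, 7.20 and 10.5 CPM in b''ab''b red libraries against 14.9, 13.7 and 11.1 CPM in b''ab''b dark libraries, and at 10.5, 14.1 and 9.67 CPM in WT red libraries against 14.1, 7.45 and 11.0 CPM in WT dark libraries. Its red and dark libraries did not overlap in b''ab''b and overlapped in WT, but the difference was not called (edgeR adjusted p = 1.000). For the members with large changes it was -0.18 ± 0.34 for IAA29, -0.23 ± 0.23 for IAA20, 0.06 ± 0.18 for IAA28 and -0.04 ± 0.16 for GH3.6. With 3 libraries a group, differences of the size of those errors could not be detected, and larger ones could be missed too. IAA32, at -0.61 ± 0.32, was not called, and neither was any other of the 18487 tested genes.

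**Figure D4:**
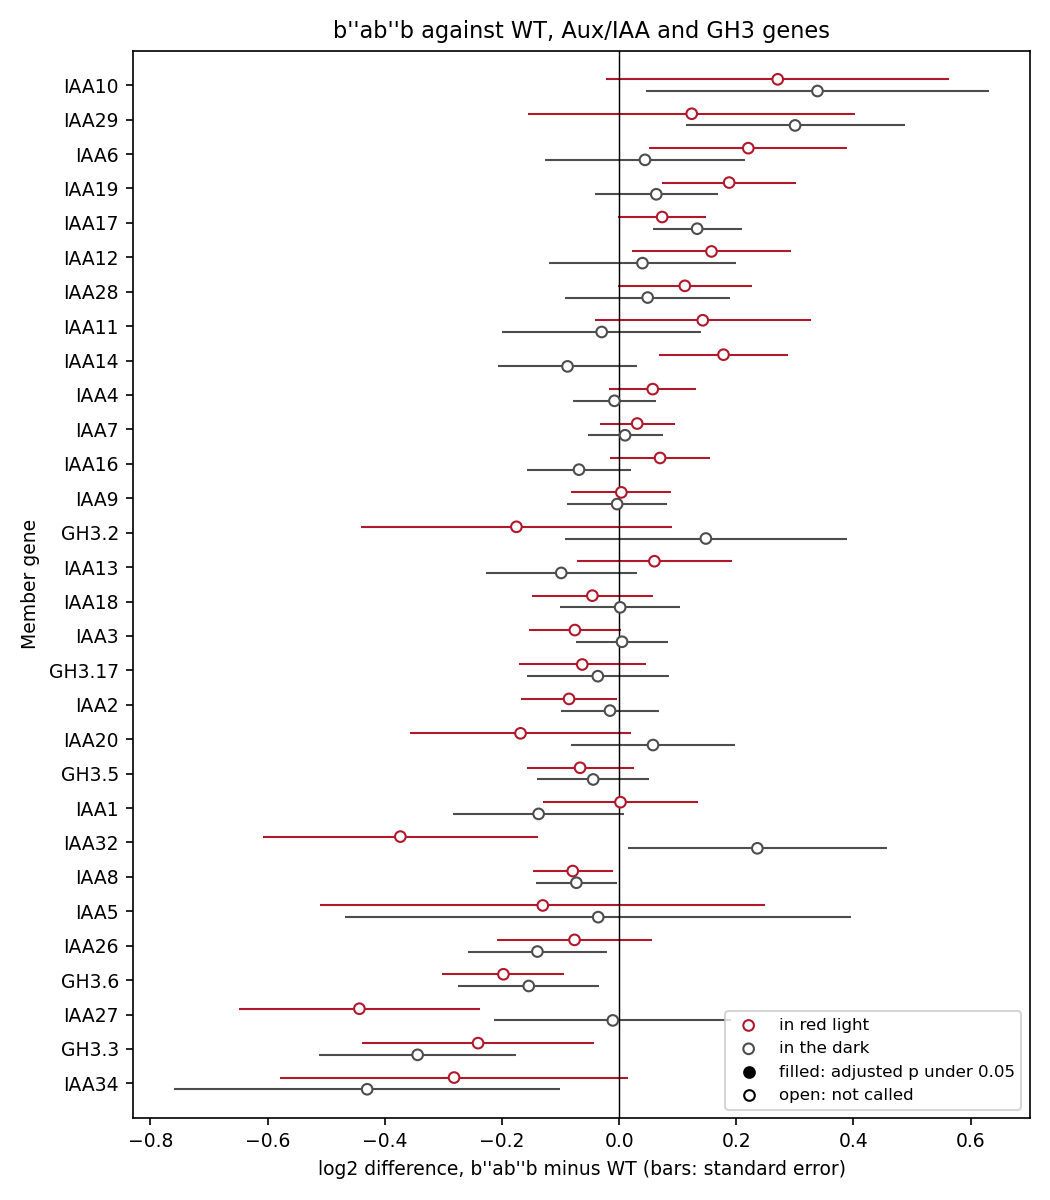
Log2 difference between b''ab''b and WT for the 30 tested members (rows), in red light (red) and in the dark (grey); points are edgeR estimates and bars their standard errors, and all points are open because none had an adjusted p under 0.05. The values run from -0.44 (IAA27 in red light) to 0.34 (IAA10 in the dark).

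The rest of the auxin pathway was followed in lists of genes by role. All 6 TIR1/AFB receptor genes were tested. With edgeR 0 passed in b''ab''b (1 at an unadjusted p under 0.05), and AFB5 rose in WT (log2 change 0.32 ± 0.09, edgeR adjusted p = 0.0139). TIR1 was at 0.26 ± 0.10 in b''ab''b and 0.28 ± 0.10 in WT without a call (edgeR adjusted p = 0.0954 and 0.0639). With both genotypes averaged TIR1 (0.27 ± 0.07) and AFB5 (0.25 ± 0.06) rose (edgeR adjusted p = 0.00650 and 0.00391). Of 23 ARF genes 15 were tested. In b''ab''b ARF8 rose (0.44 ± 0.13) and ARF4 (-0.52 ± 0.13), ARF17 (-0.65 ± 0.20) and ARF18 (-0.96 ± 0.20) fell (edgeR adjusted p = 0.00112 to 0.0221). In WT 1 fell, ARF17 (-0.95 ± 0.20, edgeR adjusted p = 0.00161), while ARF8 was at 0.29 ± 0.13, ARF4 at -0.31 ± 0.13 and ARF18 at -0.50 ± 0.19 without a call. With both genotypes averaged ARF8 rose, and ARF4, ARF17 and ARF18 fell. AFB5 was at 0.18 ± 0.09 in b''ab''b, and for no gene of these lists was the difference in red light change between b''ab''b and WT called. ARF8 and ARF17 are known as targets of microRNAs.

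Of 14 synthesis genes 5 were tested: TAA1, the aminotransferase of the main auxin route, fell in b''ab''b (-0.63 ± 0.20, edgeR adjusted p = 0.0334) and was at -0.43 ± 0.21 in WT (edgeR adjusted p = 0.184). Its relative TAR2 was at 0.63 ± 0.23 in b''ab''b (edgeR adjusted p = 0.0704) and rose in WT (0.93 ± 0.24, edgeR adjusted p = 0.00759). With both genotypes averaged TAA1 fell (-0.53 ± 0.14) and TAR2 rose (0.78 ± 0.17), with edgeR adjusted p = 0.00746 and 9.11e-04. The difference between the genotypes was called for neither (edgeR adjusted p = 1.000 and 1.000). YUC3 also fell in that average (-0.40 ± 0.14, edgeR adjusted p = 0.0417), and was called in neither genotype alone. Of 15 transport genes 12 were tested; the influx carriers AUX1 (-0.40 ± 0.08) and LAX3 (-0.37 ± 0.10) and the efflux carrier PIN4 (-0.25 ± 0.09) fell in b''ab''b (edgeR adjusted p = 0.00123, 0.0100 and 0.0498), and AUX1 fell in WT (-0.27 ± 0.08, edgeR adjusted p = 0.0306). In WT LAX3 was at -0.20 ± 0.10 and PIN4 at -0.13 ± 0.09 (edgeR adjusted p = 0.218 and 0.363). With both genotypes averaged AUX1, LAX3 and PIN4 all fell. The difference in red light change between b''ab''b and WT was called for 0 of the 12 tested transport genes. Of 10 genes for other ways of inactivating or releasing auxin 9 were tested and 0 passed in either genotype (edgeR; 0 at an unadjusted p under 0.05 in b''ab''b and 0 in WT).

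Other GH3 genes, those outside the 7 members, rose where they were called. Their enzymes act on other substrates or are not assigned one here, except GH3.9, which the reference annotates as a putative auxin-conjugating enzyme. Of 12 such genes 7 were tested, and 3 rose in each genotype. DFL2 (GH3.10), which is known for an effect on hypocotyl length in red light, was at 9.62, 9.69 and 7.74 CPM in b''ab''b red libraries, against 5.09, 4.27 and 3.159 CPM in b''ab''b dark libraries. DFL2 was at 11.8, 12.5 and 16.0 CPM in WT red libraries, against 6.16, 4.96 and 4.38 CPM in WT dark libraries. All red libraries exceeded all dark ones, with a log2 change of 1.15 ± 0.25 in b''ab''b and 1.34 ± 0.23 in WT (edgeR adjusted p = 0.00172 and 1.03e-04). AT5G13360 rose in both (log2 change 0.94 ± 0.19 in b''ab''b and 0.63 ± 0.19 in WT, edgeR adjusted p = 8.61e-04 and 0.0233). AT5G13370 was called in b''ab''b (0.45 ± 0.14, edgeR adjusted p = 0.0290) and stood at 0.26 ± 0.14 in WT. JAR1 (GH3.11), which conjugates jasmonic acid to isoleucine, was called in WT (0.39 ± 0.11, edgeR adjusted p = 0.0139) and stood at 0.20 ± 0.11 in b''ab''b. With both genotypes averaged all 4 of these genes rose. The difference in red light change between b''ab''b and WT was called for 0 of the 7 tested.

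**Figure D5:**
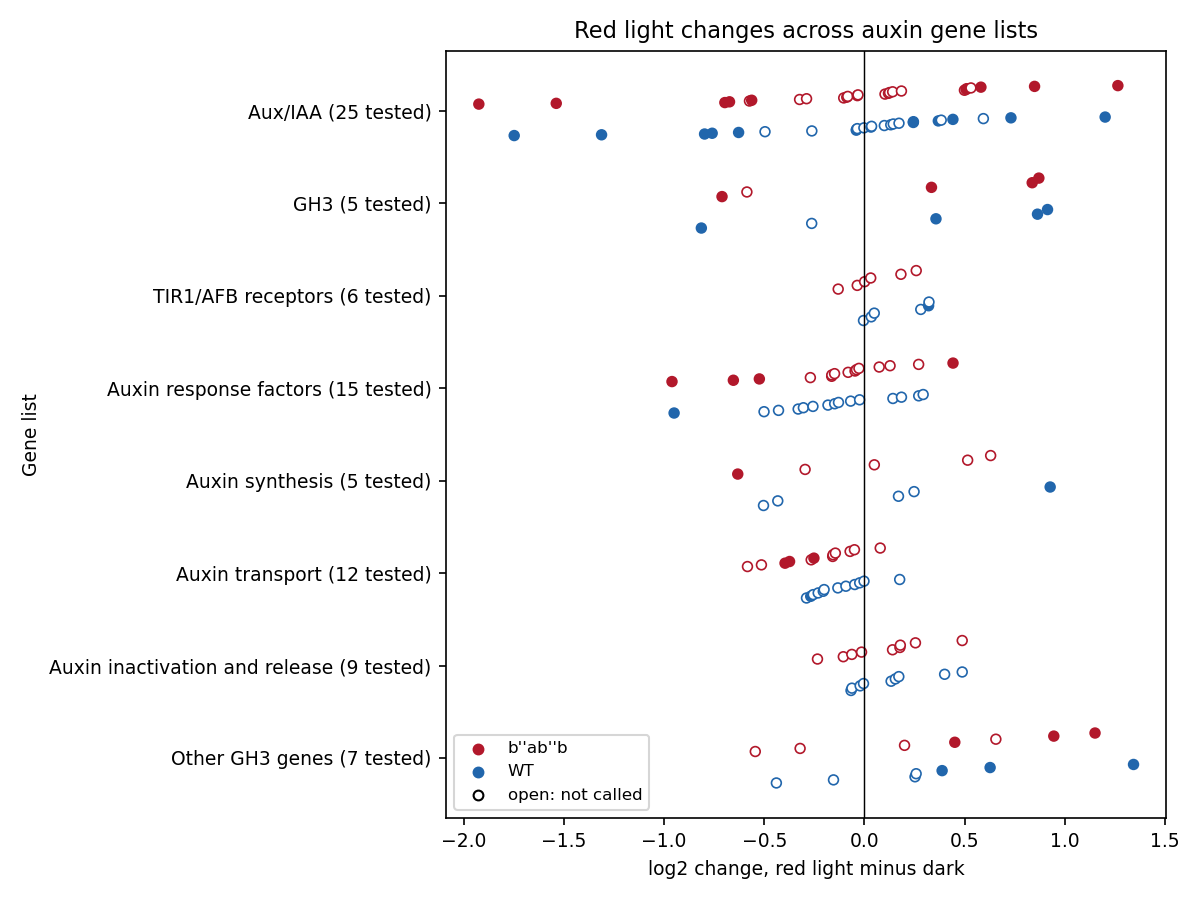
Log2 change from dark to red light of every tested gene in 8 auxin lists (rows), with b''ab''b in red above WT in blue; filled points have an edgeR adjusted p under 0.05. The Aux/IAA row spans -1.92 to 1.26 in b''ab''b, while the receptor row stays between -0.13 and 0.26.

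Over all 36 members, 15 (41.7%) held TGTCNC on either strand in the 250 bases before the start, beside 23.9% of 27444 genes of the annotation. TGTCGG was found before 6 members (16.7%, beside 4.16%) and CACGTG before 5 (13.9%, beside 6.49%): IAA7, IAA19, IAA20, IAA30 and GH3.2. In 1000 bases the shares were 77.8% beside 68.5% for TGTCNC, 25% beside 14.6% for TGTCGG and 25% beside 14.8% for CACGTG.

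By direction, 4 of the 6 members that fell in both genotypes held TGTCNC in 250 bases (IAA4, IAA19, IAA20 and GH3.3), 2 held CACGTG (IAA19 and IAA20) and 0 held TGTCGG. Of the 7 that rose in both, 2 held TGTCNC (IAA1 and GH3.5), 3 held TGTCGG (IAA1, IAA12 and IAA16) and 0 held CACGTG, also not in 1000 bases. In 1000 bases TGTCNC was held by 5 of the 6 that fell and 4 of the 7 that rose. TGTCGG was held there by 1 that fell (IAA29) and 4 that rose, and CACGTG by 2 that fell. Tested members not called in both genotypes held these letters too. In 1000 bases CACGTG was held by IAA2, IAA5, IAA7, IAA9, IAA11 and GH3.2. In 250 bases TGTCNC was held by IAA5, IAA6, IAA8, IAA9, IAA18, IAA32, IAA34 and GH3.2, and TGTCGG by IAA5, IAA13 and IAA27. A link between these letters and the direction of change was not tested. The member that fell the most, IAA29, and the one that rose the most, IAA28, both lacked all 3 in the nearest 250 bases. These counts describe letters in a window, and binding was not measured.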

How the data were processed

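RNA was measured in 12 libraries of whole Arabidopsis thaliana seedlings, which per the labels are 3′ tag libraries made from total RNA, 3 in each of 4 groups of genotype and light. The deposited values are raw whole-number counts for each gene in each library. Per the submitters' processing notes FastQC, HISAT2, HTSeq, edgeR and the build TAIR10 were used, without versions, and they do not state strand use or the handling of multi-mapping reads. All 5 HTSeq summary lines were left out, and their ambiguous reads amounted to 0.943 to 1.28% of the counts on genes. Columns were matched to samples by title.

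Totals were 2874429 to 4979055 counts. All 12 within-group pairs of libraries differed beyond sampling noise (chi-square per degree of freedom at least 1.54), and each library was treated as 1 sample. One fit in edgeR 4.0.16 (R 4.3.3) covered all 12 libraries: TMM factors, filterByExpr with a minimum count of 10 (18487 of 33655 genes), a term per group, quasi-likelihood tests, and Benjamini-Hochberg adjusted p under 0.05 over all tested genes. Standard errors were derived from the F statistic (absolute log2 change over its square root). Levels are in CPM, computed with TMM-scaled library sizes. The procedure was tested on simulated data.

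Alternatives were RLE factors, DESeq2 1.42.0, limma-voom (limma 3.58.1), no low-count filter, a stricter one (mean of 5 CPM or more), a replicate block, only the 2 groups compared, each library left out in turn, and both dark libraries that stand apart left out. Gene models, upstream bases and degron codons came from the RefSeq TAIR10.1 genome and annotation, read with python 3.11.15 and Biopython 1.88. Coding sequences, degron codons and 3′ ends were those of annotation isoform 1. Gene coordinates and upstream bases were set by the outer ends of the annotated gene. The 3′ ends were compared with blastn 2.17.0. The members, the gene lists and the rule for naming genes were chosen with earlier results of these data known; the rule gives library values for members called in any comparison and for IAA19, IAA29, IAA3, IAA6, GH3.3, GH3.5, GH3.6 and GH3.17, and from each pathway list up to 3 called genes per comparison. IAA32, GH3.2 and DFL2, which is not a member, are also given by library and were chosen for this after their values were seen. The pair test, its values over all other pairs of tested members and the look at upstream letters by direction were added after the values were seen. Amino acid sequences were not used here.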

Additional observations from a re-analysis of the deposited data

How the results depend on the processing

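The counts of members called stayed within 1.5 times their main values under all alternatives run: 7 to 10 rose and 5 to 7 fell in b''ab''b, 6 to 8 rose and 6 to 7 fell in WT, 9 to 11 rose and 6 to 8 fell with both genotypes averaged, and 0 passed in any comparison between b''ab''b and WT. No log2 change of a called member reversed. In b''ab''b 12 of the 14 called members were called under every alternative (all but GH3.3 and GH3.5), in WT 11 of 14 (all but IAA1, IAA17 and GH3.5), and in the average 15 of 16 (all but IAA11). The replicate numbers did not pair the libraries: of 18 same-numbered pairs 2 had a correlation over 0.1 (range -0.17 to 0.15), and 2 of 12 libraries correlated best with their own number. With the replicate block 8 members rose and 6 fell in each genotype, as without it. Counts over all genes between b''ab''b and WT were few and moved more: in red light 10 rose and 5 fell in the main fit, against 3 to 29 and 5 to 39 over the alternatives, in the dark 5 and 5 against 4 to 24 and 4 to 45, averaged 10 and 12 against 7 to 47 and 6 to 69, and for the difference in red light change 0 and 0 against 0 to 20 and 0 to 8. Other scalings moved the median of all genes by under 0.1 on the log2 scale. Depth limits the low members: 6 could not be tested, and IAA5 and IAA10, with 132 and 238 counts in all, had standard errors of 0.41 and 0.28 in b''ab''b, against a median of 0.13 over the tested members.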
